A study of Homo sapiens with 43 samples.

Results

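The regions described here are the peaks of the HNRNPC wt-eCLIP list that overlapped a peak of both HNRNPC V5-eCLIP lists, isoform 1 and isoform 2, and no peak of the other 22 lists. They were chosen by position and strand alone (same strand, 1 nt or more in common, mitochondrial peaks left out), without use of the fold or p-value of a peak. Being called in a list is itself a measured outcome, so the values of the regions in the HNRNPC libraries are given as a description. There were 6430 such HNRNPC-only regions, which is 10.2% (95% Wilson interval 9.99 to 10.5) of the 62880 HNRNPC wild-type peaks and 39.3% of the 16360 wild-type peaks found in both isoform lists. The 25 lists together held 1424917 peaks outside the mitochondrial genome.

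The series profiled protein-bound RNA of HEK293T, a line derived from human embryonic kidney, by eCLIP (enhanced crosslinking and immunoprecipitation). Cells were irradiated with ultraviolet light to crosslink proteins to RNA, the RNA was trimmed with RNase I, and complexes were immunoprecipitated and cut from a protein gel over a window of 75 kDa. HNRNPC wt-eCLIP used an antibody against HNRNPC (MBL) in HEK293T cells, and HNRNPC V5-eCLIP isoform 1 and isoform 2 used an antibody against the V5 tag (Bethyl). The series title describes tags placed in the genome by CRISPR/Cas9. The labels do not say which allele was tagged or whether a tagged line was 1 clone. The 22 lists used for exclusion were FMR1 wt-eCLIP and FLAG-eCLIP, RBFOX2 wt-eCLIP and V5-eCLIP, LIN28 wt-eCLIP and V5-eCLIP, DGCR8 wt-eCLIP and FLAG-eCLIP, and FLAG-only and V5-only libraries of 7 gel ranges each. The labels name no protein for the FLAG-only and V5-only libraries and do not say whether their cells carried a tag. Each state had 1 library, so no value here has a replicate error, and intervals cover counting over peaks only.

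HNRNPC encodes the C proteins of the heterogeneous nuclear ribonucleoprotein particle, nuclear proteins that bind nascent pre-messenger RNA as tetramers and prefer uninterrupted runs of uridine. They are known for competing with the splicing factor U2AF2 at uridine-rich sites, which keeps antisense Alu elements in introns from being spliced in as exons. Crosslinked positions of HNRNPC along a transcript have been described as regularly spaced, a pattern linked to the wrapping of RNA around the particle. Isoform 1 and isoform 2 are splice variants of the same gene. Positions are in the human build hg19. No hg19 sequence or gene annotation was used here, so the regions are given by position, without gene names, introns or uridine content.

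The path to the 6430 regions ran through several filters. Of the 62880 wild-type peaks, 21967 overlapped an isoform 1 peak, 27157 an isoform 2 peak and 16360 both. The remaining 9930 peaks of both isoform lists also overlapped a peak of at least 1 other list, and they serve below as the comparison set ("shared HNRNPC peaks"). By the exact number of other lists overlapped, 0 was the commonest value among the 16360, although the 9930 with any overlap were the majority. An overlap with exactly 1 other list was found for 2785 (17.0%), and 221 (1.35%) lay under peaks of all 22. A further 23362 wild-type peaks (37.2%) were in no other list of the series at all.

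**Figure D1:**
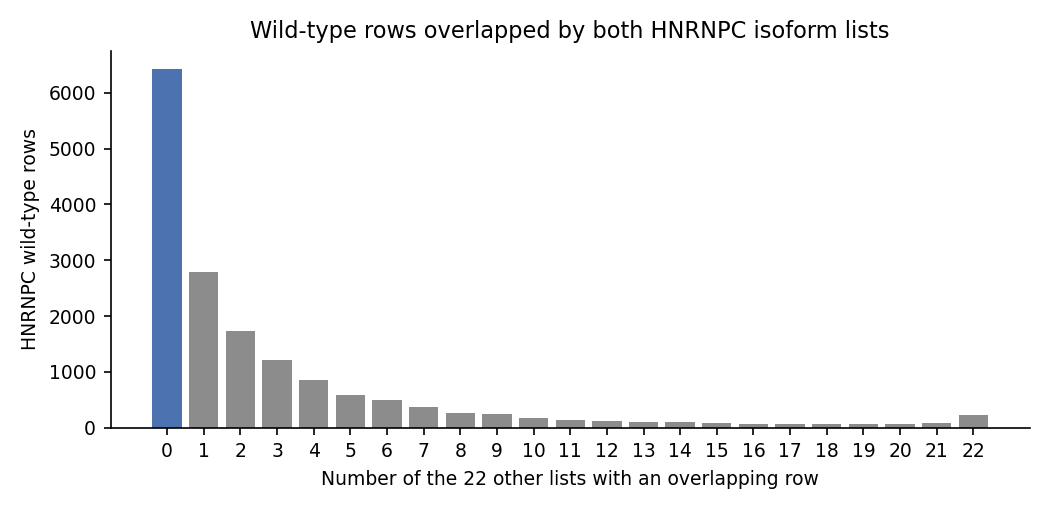
Number of HNRNPC wild-type peaks in both isoform lists (y axis) by the number of the 22 other lists with an overlapping peak (x axis). The blue bar at 0 is the 6430 HNRNPC-only regions, and the grey bars sum to the 9930 shared peaks, with a small rise at 22 lists to 221.

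The same selection gave smaller shares for the other 4 proteins. Peaks of a wild-type list that were in the tagged list of the same protein and in none of the rest made up 8.19% of the list for LIN28 (3484 peaks), a regulator of microRNA precursors and messenger RNAs. For RBFOX2, a splicing regulator of introns, the share was 7.73% (3341 peaks). It was 3.91% for FMR1 (2288 peaks), a translational regulator, and 1.01% for DGCR8 (333 peaks), the partner of DROSHA in microRNA processing. HNRNPC had 2 tagged lists to match and these proteins 1 each, so the HNRNPC rule was the stricter on that side. In turn, more lists could exclude a peak of these proteins, because all 3 HNRNPC lists counted against them. Taken over the peaks that each protein shared with its own tagged list, the shares were 39.3% for HNRNPC, 28.4% for RBFOX2, 16.6% for LIN28, 7.31% for FMR1 and 6.7% for DGCR8. On this second measure RBFOX2 came next to HNRNPC, while by share of the whole wild-type list LIN28 was above RBFOX2. The lists differed in length, from 25723 to 100860 peaks, and in depth, which is unknown.

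HNRNPC-only regions were wider than wild-type peaks at large and narrower than shared HNRNPC peaks. The median width was 38 nt (quartiles 28 and 45, range 1 to 157), against 32 nt for all wild-type peaks. It was 45 nt for shared HNRNPC peaks and 25 nt for wild-type peaks in no other list. The smaller of the 2 isoform overlaps had a median of 24 nt and was at least 10 nt in 5692 regions (88.5%). The 5′ end of a region lay within 5 nt of the 5′ end of its isoform 1 peak in 52.6% of regions and of its isoform 2 peak in 56.2%. The 3′ ends were that close in fewer regions, 43.6% and 46.7%. Shared HNRNPC peaks had the same order, with 56.0% and 60.8% for 5′ ends and 43.8% and 48.4% for 3′ ends. In eCLIP the 5′ end of a read marks where reverse transcription stopped, usually at the crosslinked base.

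At the edge of the rule, 28 regions met an isoform peak by 1 nt only. Their median log2 fold was 1.05 in the wild-type library, 1.27 for isoform 1 and 1.73 for isoform 2. Just outside, 15 peaks were lost through an overlap of 1 nt with another list, with medians of 0.95, 1.22 and 1.24. A further 9 regions touched a peak of another list without overlap, with medians of 1.82, 1.64 and 1.09. An overlap of under 10 nt removed 565 peaks in all.

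Folds over the size-matched input were mostly moderate, and the median −log10 p of the regions in wild type was only 0.43. The folds are the authors' log2 fold of immunoprecipitation over input for each peak, given beside the authors' −log10 p for that peak. The regions had a median log2 fold of 1.54 in the wild-type library (quartiles 0.73 and 2.19), 1.43 for isoform 1 (0.69 and 1.98) and 1.61 for isoform 2 (1.02 and 2.19). All peaks of those lists had medians of 1.05, 1.11 and 1.19. Shared HNRNPC peaks had medians of 1.54, 1.11 and 1.34, so the wild-type medians of both sets were equal, while in both V5 libraries the HNRNPC-only regions lay higher.

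Few regions passed the usual eCLIP threshold of a −log10 p of at least 3 together with a log2 fold of at least 3, which is 8-fold over input. In wild type 212 regions passed (3.3%, interval 2.89 to 3.76), against 2.16 percent of all wild-type peaks and 5.37 percent of the 16360 peaks found in both isoform lists. In isoform 1, 129 regions passed (2.01%), against 0.763 percent of that whole list. In isoform 2, 225 passed (3.5%), against 1.97 percent of that list. Shared HNRNPC peaks passed more often than the regions in wild type (6.72%) and slightly more often in isoform 2 (3.72%), and less often in isoform 1 (1.61%). All 3 libraries were past the threshold in 15 regions (0.233%), against 0.0493 percent of all wild-type peaks and 0.161% of shared HNRNPC peaks. None of the 3 was past it in 5947 regions (92.5%). Among the 15, the adjoining regions chr11:62631790-62631805 and chr11:62631806-62631827 on the plus strand overlapped the same isoform peaks and are the same position. Overlap with both isoform lists was required of every region, so these shares describe the set and test nothing.

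A positive fold was usual in the wild-type list, with a negative one for 10.6% of all its peaks. The log2 fold was above 0 in all 3 libraries for 5564 regions (86.5%), against 76.1% of shared peaks. It was at least 1 in all 3 for 2677 regions (41.6%), against 36.0%. Every region had to be called in all 3 lists, so these shares describe the set and do not test agreement between libraries. Peaks depleted against input were rare among the regions. A negative fold was found for 5.54% of them in the wild-type library, 5.88% for isoform 1 and 4.01% for isoform 2, against 11.2%, 15.2% and 13.0% of shared peaks. A fold below 0 in all 3 libraries occurred in 5 regions and in 508 shared peaks.

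The size of the fold carried over only loosely between libraries. Over the 6430 regions, Pearson's r was 0.30 between wild type and isoform 1, 0.31 between wild type and isoform 2 and 0.30 between the isoforms, with Spearman's rho of 0.29, 0.30 and 0.28. Over the 9930 shared peaks r was 0.63, 0.62 and 0.67 and rho 0.44, 0.45 and 0.47. These are descriptions across peaks, which share libraries and are not independent replicates. Shared peaks also spanned a wider range of folds, down to −9.33 in wild type against −1.69 for the regions. Regions that passed the threshold in wild type passed it more often in the V5 libraries. In isoform 1, 30 of these 212 passed (14.2%, interval 10.1 to 19.5) against 1.59% of the other regions. In isoform 2, 36 of 212 passed (17.0%, 12.5 to 22.6) against 3.04%. Between the isoforms, 32 of the 129 past in isoform 1 were past in isoform 2 (24.8%) against 3.06% of the rest. Isoform 2 had the higher fold of the V5 libraries in 57.2% of regions, close to the 57.1% among shared peaks.

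Many folds fell on shared steps. In wild type, 52.3% of the regions had a fold on a ladder of steps (log2 0.31, 0.73, 1.05, 1.31, 1.54 and upwards) spaced as ratios of small whole numbers from 3 to 12 would be, and 56.8% of all wild-type peaks did. The median −log10 p of the regions in wild type was 0.43. Read depth was not given, so a missing peak in another list shows only that none was called there.

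The share of wild-type peaks that were HNRNPC-only rose with the wild-type fold and then levelled off. It was 5.33% for peaks of negative log2 fold, 7.65% from 0 to under 1, 11.4% from 1 to under 2, 14.3% from 2 to under 3, 15.7% from 3 to under 4 and 13.8% (42 of 304, interval 10.4 to 18.1) from 4 upwards. The share of shared peaks was 16.6% for peaks of negative log2 fold and lower, 10.5%, from 0 to under 1. From there it rose without levelling off, to 59.5% from 4 upwards. The strongest HNRNPC wild-type peaks were therefore mostly positions that other lists also called.

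**Figure D2:**
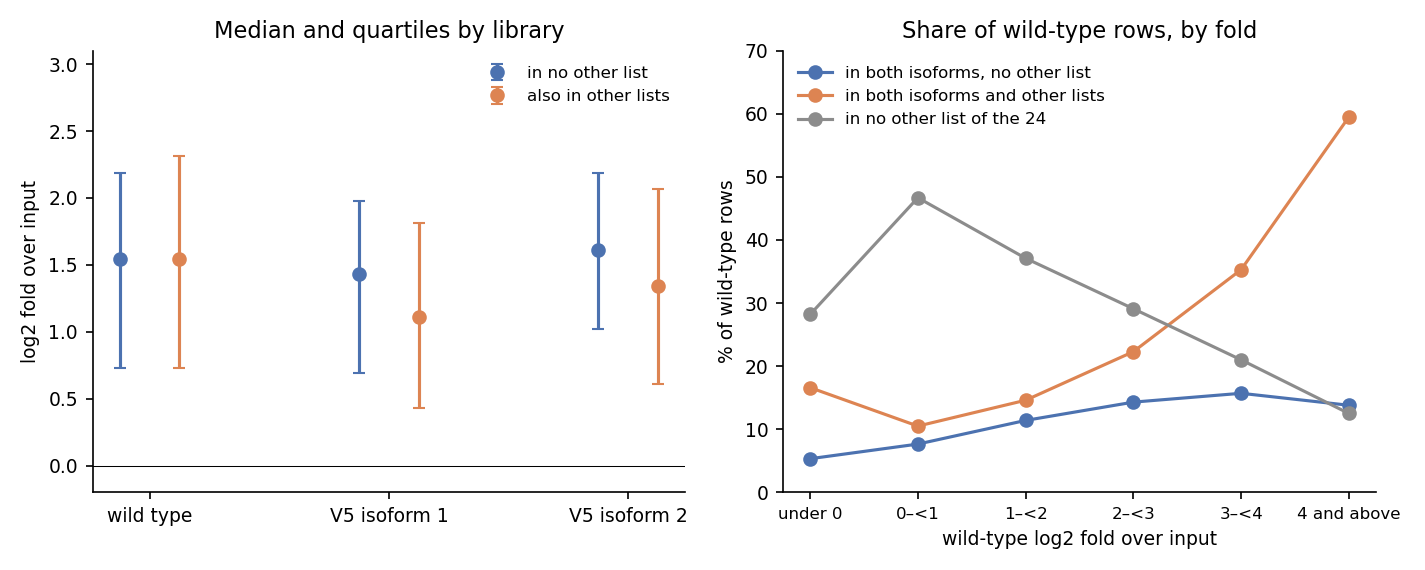
Left, median log2 fold over input (points) with quartiles (bars) of the 6430 HNRNPC-only regions and the 9930 shared peaks in each HNRNPC library; the sets have equal medians in wild type (1.54) and differ in the V5 libraries. Right, percent of wild-type peaks in each class of wild-type log2 fold (x axis) that were HNRNPC-only, shared, or in no other list; the HNRNPC-only share levels off near 15.7% while the shared one reaches 59.5%.

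The 10 regions with the highest lowest-of-3 log2 fold were ranked by their weakest library, which does not measure how even the 3 folds were. The lowest of the 3 folds had a median of 0.81 over all regions and a 90th percentile of 1.83, and 25 regions kept it at 3 or more. These regions were selected on their folds, so the values below are descriptions.

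The leading region was chr16:30730233-30730285 on the plus strand, 53 nt wide, with a wild-type log2 fold of 4.25, an isoform 1 fold of 3.97 and an isoform 2 fold of 3.68. Its −log10 p was 5.57, 4.2 and 9.78, so it was past the threshold in all 3 libraries. Both isoform peaks began at the same base as the wild-type peak, 30730233, and the nearest peak of another list, in RBFOX2 wild type, was 1239 nt away. It also lay inside the largest group of HNRNPC-only regions, described below.

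The next was chr3:142750923-142750973 on the plus strand, with folds of 4.96, 4.39 and 3.66. It too was past the threshold in all 3 libraries, with −log10 p of 9.77, 5.99 and 3.25, and no other HNRNPC wild-type peak lay within 1000 nt. The 3 peaks began within 2 nt of each other, at 142750923, 142750924 and 142750925. The nearest peak of another list, in FLAG-only at 25 to 100 kDa, was 651 nt away. This region had the third highest wild-type fold of all the regions.

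Among the other 8, chr22:19095882-19095921 on the minus strand had folds of 3.98, 3.43 and 3.65 and was past the threshold in all 3 libraries. The nearest peak of any other list was 8420 nt away, the farthest among the 10. chr1:163304613-163304652 on the plus strand, with 3.82, 3.36 and 3.54, was also past it in all 3, but a V5-only peak lay 76 nt away. These 2 regions thus had similar folds in very different surroundings.

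For 3 regions the wild-type −log10 p fell short of the threshold while both V5 libraries passed. chr15:68516552-68516606 (minus strand) had folds of 3.48, 4.06 and 3.95 with a wild-type −log10 p of 2.88. chr1:16212381-16212399 (plus strand) had 3.43, 4.84 and 3.66, and chr2:71601280-71601309 (plus strand) had 3.43, 3.86 and 4.38, both with a wild-type −log10 p of 2.66. In each of them the fold was lowest in wild type. chr7:135279853-135279880 (plus strand; 3.31, 3.57 and 3.41), chr20:30992949-30992983 (plus strand; 3.25, 3.43 and 3.34) and chr17:80874299-80874332 (plus strand; 3.19, 3.5 and 3.61) passed in 1 library each. In these last 3 the folds of the libraries differed by less than 0.5 log2 units, so what separated the libraries there was the p-value and not the fold.

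**Figure D3:**
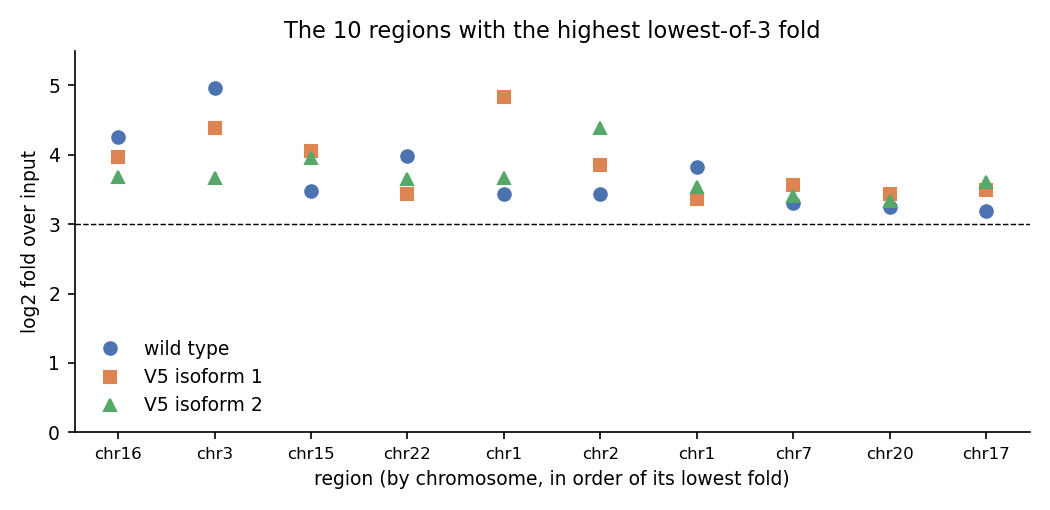
Log2 fold over input (y axis) of the 10 regions with the highest lowest-of-3 fold, named by chromosome and ordered by that lowest fold, in HNRNPC wild type, V5 isoform 1 and V5 isoform 2. The dashed line marks a log2 fold of 3; all 30 points lie above it, between 3.19 and 4.96.

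The regions of highest wild-type fold were less even. chr11:65207665-65207744 on the plus strand, 80 nt wide, had the highest wild-type fold, 5.96, and folds of 2.73 in isoform 1 and 3.33 in isoform 2. Its −log10 p was high throughout, at 15.66 (a value that 20 wild-type peaks share within 0.01), 13.22 and 10.78, and a LIN28 V5 peak lay 27 nt away. chr15:69103396-69103407 on the minus strand, only 12 nt wide, had 4.98, 2.77 and 2.48. An RBFOX2 wild-type peak lay 2 nt away, so its place in the set turned on 2 nt. The adjoining regions chr1:242014158-242014173 and chr1:242014174-242014199 on the plus strand each had 4.73, 1.85 and 3.27. They overlapped the same isoform peaks and are therefore 1 position counted as 2 regions.

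When HNRNPC-only regions on the same strand less than or equal to 1000 nt apart were joined, they formed 5268 groups, of which 4380 held 1 region, 704 held 2 and 184 held 3 or more. A total of 2050 regions (31.9%) had another region of the set within that distance, against 48.3% of the 9930 shared peaks among themselves and 21.5% of the 23362 wild-type peaks in no other list. These shares depend on the size of each set and were not tested. Joined within 100 nt, they formed 6169 groups.

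The largest group lay at chr16:30729381-30730895 on the plus strand, with 8 regions over 1515 nt. Wild-type log2 folds there ran from −0.27 to 4.25 (median 1.27), isoform 1 folds from 0.11 to 3.97 (median 2.77) and isoform 2 folds from 1.45 to 3.68 (median 3.08). Both V5 folds were above the wild-type fold in 7 of the 8 regions, the exception being the leading region above, and 4 of the 8 passed the threshold in isoform 2 against 1 in each of the other libraries. The distances between successive middles were 130, 297, 22, 157, 156, 102 and 613 nt, the 22 nt step being a position split into adjoining peaks with the same isoform folds.

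The next largest group, chr16:30737122-30739407 on the plus strand, lay some way downstream on the same strand and held 7 regions. Its medians were 1.9 for the wild-type library, 1.75 for isoform 1 and 2.21 for isoform 2. Joined within 10000 nt, both groups fell into a stretch of 28.4 kb, chr16:30710976-30739407, with 20 HNRNPC-only regions. These were 62.5% of the 32 wild-type peaks on that strand of the stretch. The third group, chr4:1212915-1215008 on the minus strand, held 7 regions with medians of 1.95, 1.81 and 2.27, and 1 of these passed the threshold, in isoform 2. The next largest stretches joined within 10000 nt were chrX:53418344-53446970 on the minus strand with 13 of 22 wild-type peaks HNRNPC-only (59.1%), chr1:16180178-16194239 on the plus strand with 12 of 15 (80.0%) and chr1:35645952-35655556 on the minus strand with 11 of 23 (47.8%). Each stretch begins and ends at a region of the set, which raises these shares.

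Pairs of HNRNPC-only regions favoured certain distances. Measured from middle to middle on the same strand, 209 pairs were 140 to 180 nt apart, against 54 pairs in the flanking distances of 100 to 120 and 200 to 220 nt, which cover the same number of nucleotides (each window leaves out its upper end). The ratio was 3.87 (95% interval 2.87 to 5.21, counting error only). A further excess lay at 280 to 320 nt, with 109 pairs against 52 at 240 to 260 and 340 to 360 nt, a ratio of 2.1 (1.51 to 2.91). In bins of 10 nt, the fullest were 150 to 160 nt with 71 pairs and 300 to 310 nt with 36. These windows were set after the distances had been seen. Pairs within a group share regions, so the intervals are too narrow.

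Both distances were also in excess in the 3 whole HNRNPC lists and in no other list of the series. The ratios at 140 to 180 nt were 2.08 in the wild-type list, 1.66 for isoform 1 and 2.34 for isoform 2, and those at 280 to 320 nt were 1.51, 1.39 and 1.66. Over the 22 other lists the first ratio ran from 0.821 to 0.99 and the second from 0.946 to 1.06. The isoform lists were made with another antibody than the wild-type list, and whether the antibody bears on the distances was not tested. Within the wild-type list the first ratio was 3.87 for the HNRNPC-only regions, 3.24 for peaks in 1 isoform list and no other, 1.87 (1.63 to 2.14) for shared peaks and 1.82 for peaks in no other list. The second ratio was 2.1 for the HNRNPC-only regions, 1.88 for peaks in 1 isoform list and no other, 1.16 (0.993 to 1.37) for shared peaks and 1.26 (0.985 to 1.62) for peaks in no other list, so the last 2 intervals included 1. The classes were not tested against each other.

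**Figure D4:**
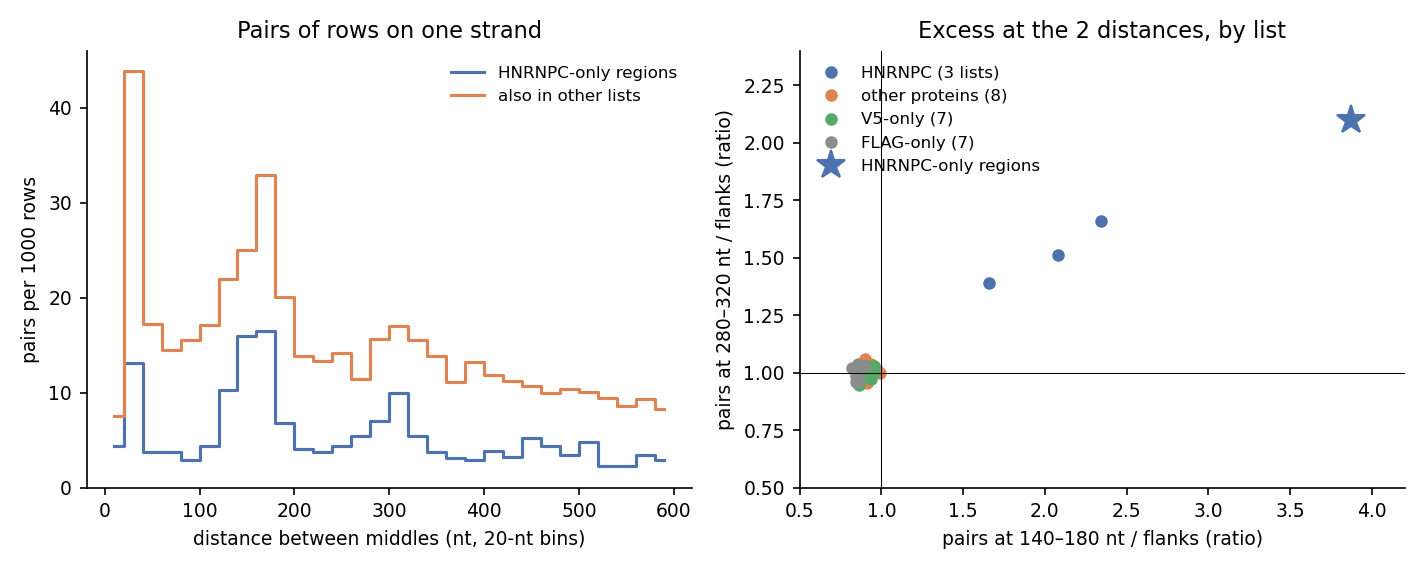
Left, pairs of peaks on the same strand per 1000 peaks (y axis) by distance between middles in 20-nt bins (x axis), for HNRNPC-only regions and shared HNRNPC peaks. Both rise near 160 nt and again near 300 nt. At the second distance the rise of the shared peaks was the weaker, from 11.5 pairs per 1000 in the bin starting at 260 nt to 17.0 in that starting at 300 nt. Their ratio there was 1.16. Of the 82 successive HNRNPC-only regions 20 to 40 nt apart, 80 adjoined without a gap. Right, ratio of pairs at 140 to 180 nt to the flanking distances (x axis) against that at 280 to 320 nt (y axis) for each of the 25 lists and for the HNRNPC-only regions (star, 3.87 and 2.1); lines mark a ratio of 1, and the 22 lists without HNRNPC lie close to it.

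Counted by region, 1311 of the 6430 (20.4%, interval 19.4 to 21.4) had another HNRNPC wild-type peak of any class 140 to 180 nt away, and 445 (6.92%) had one in the flanking distances. For 280 to 320 nt the numbers were 771 (12.0%) and 401 (6.24%). Shared peaks had a like share at the first distance, 21.6%, but a higher one in its flanks, 11.6%. Wild-type peaks in no other list had 6.18% and 3.23%. The excess among HNRNPC-only regions came with fewer neighbours at other distances than among shared peaks.

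V5-only lists removed far more HNRNPC peaks than FLAG-only lists did. Of the 16360 wild-type peaks found in both isoform lists, 8131 (49.7%) overlapped at least 1 V5-only peak and 3202 (19.6%) at least 1 FLAG-only peak. The 8 lists of other proteins overlapped 5909 (36.1%). V5-only lists were the sole reason for exclusion for 3368 peaks (20.6%), FLAG-only lists for 153 (0.935%) and other proteins for 1455 (8.89%). The V5-only libraries were made with the same V5 antibody lot as the isoform libraries, per the labels. The wild-type library was not. Wild-type peaks in neither isoform list also overlapped V5-only peaks more often than FLAG-only peaks. The shares were 5.86% and 1.99% at 150 to 225 kDa, and 2.23% and 1.39% at 25 to 100 kDa. Where the gap comes from was not tested.

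V5-only was higher in each of the 7 gel ranges. At 25 to 100 kDa the V5-only list overlapped 10.1% of the 16360 peaks and the FLAG-only list 4.01%, and at 50 to 125 kDa the values were 21.7% and 5.26%. At 75 to 150 kDa they were 15.1% and 4.97%, at 100 to 175 kDa 19.8% and 8.72%, and at 125 to 200 kDa 25.7% and 7.67%. At 150 to 225 kDa they were 28.6% and 7.91%, and at 175 to 250 kDa 24.3% and 11.9%. The lists of a range were of similar length, for example 61615 V5-only and 55274 FLAG-only peaks at 150 to 225 kDa. Neighbouring ranges share 50 kDa, so the 7 are not independent, and no test was made.

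**Figure D5:**
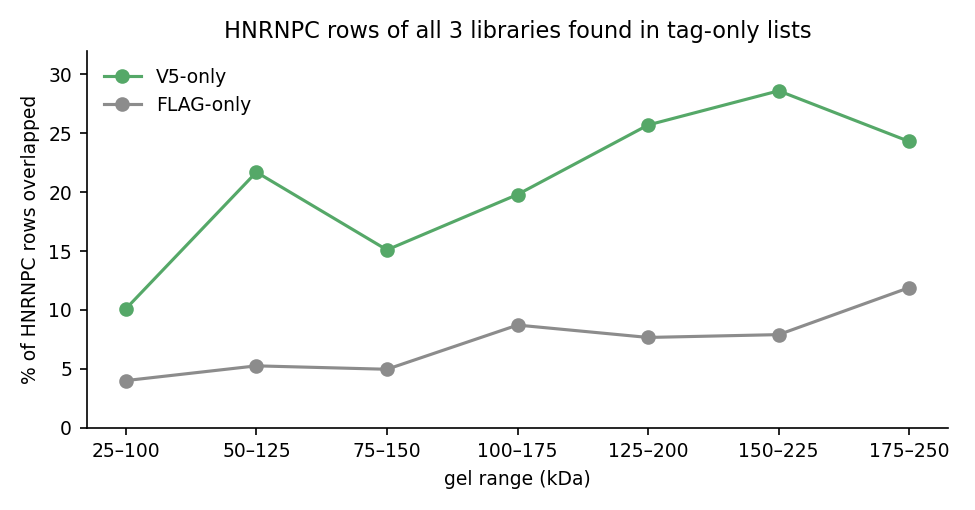
Percent of the 16360 HNRNPC wild-type peaks in both isoform lists (y axis) that overlapped a peak of the V5-only or FLAG-only list of each gel range (x axis, kDa); 1 library per point, lines join ranges only as a guide. V5-only lies between 10.1% and 28.6% and above FLAG-only, between 4.01% and 11.9%, in all 7 ranges.

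The other proteins did not have a gap of this size. The ratio of the V5-only to the FLAG-only share by range ran from 2.03 to 4.13 for HNRNPC. Over the peaks that each other protein shared with its own tagged list it ran from 0.971 to 1.27 for RBFOX2, from 0.862 to 1.07 for LIN28, from 0.844 to 1.05 for FMR1 and from 0.95 to 1.11 for DGCR8. RBFOX2 and LIN28 were tagged with V5 as well. V5-only was still the higher in 6 of 7 ranges for RBFOX2 and for DGCR8, in 3 for FMR1 and in 2 for LIN28. The FLAG-only shares beneath these ratios ran from 4.01% to 11.9% for HNRNPC. They ran from 24.3% to 34.1% for RBFOX2, 32.5% to 41.0% for LIN28, 40.3% to 48.8% for FMR1 and 53.0% to 62.5% for DGCR8. Higher base shares leave less room for a high ratio, so the ratios are not on an equal footing.

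The 3368 peaks removed by V5-only lists alone also had positive median folds in the HNRNPC libraries, though few of them passed the threshold. Their median log2 fold was 1.73 in the wild-type library, 1.3 for isoform 1 and 1.61 for isoform 2, and 206 of them (6.12%) passed the threshold in wild type, against 3.3% of the regions. In isoform 1, 1.28% passed, against 2.01% of the regions, and in isoform 2, 4.66% against 3.5%. Between their middles, 57 pairs were 140 to 180 nt apart against 9 in the flanks, a ratio of 6.33 (interval 3.18 to 12.6), and 28 were 280 to 320 nt apart against 12, a ratio of 2.33 (1.2 to 4.53). These ratios rest on few flanking pairs, and their difference from those of the regions was not tested. Within the V5-only lists, the median log2 fold of the peaks at HNRNPC positions was lower than that of the other peaks of the same list in all 7 ranges, by 0.22 to 0.77. In FLAG-only lists it was lower by 0.75 to 1.38. The shares past the threshold differed by range. In V5-only lists 0.601% of the peaks at HNRNPC positions passed at 25 to 100 kDa against 0.556% elsewhere, and 1.5% against 1.89% at 175 to 250 kDa. The gap was wider at 125 to 200 kDa (6.8% against 11.9%), 50 to 125 kDa (0.658% against 1.13%) and 75 to 150 kDa (1.57% against 2.74%). FLAG-only lists had 0.974% against 1.21% at 25 to 100 kDa and 9.74% against 22.4% at 125 to 200 kDa.

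The median gap to the nearest peak of the 22 lists on the same strand was 485 nt (quartiles 189 and 1185). It was 1000 nt or more for 1896 regions (29.5%) and 10000 nt or more for 114 (1.77%). Wild-type peaks in no other list lay farther out, with a median of 805 nt and 44.2% at 1000 nt or more. A V5-only peak within 1000 nt was found for 26.1% to 33.9% of the regions, depending on the gel range, and a FLAG-only peak for 21.1% to 24.3%. Over all wild-type peaks the shares were higher in each of the 14 lists, at 28.6% to 39.5% and 21.9% to 28.0%. Those shares count overlapping peaks as near, and the rule removed every region with an overlap, so they cannot be compared with the regions. Wild-type peaks in no other list, which have no overlap either, had lower shares than the regions. They were 16.5% to 21.3% for V5-only and 14.6% to 17.7% for FLAG-only lists, and the difference was not tested. Peaks of other lists thus lay within 1000 nt of most HNRNPC-only regions.

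The regions followed the strand of the other peaks. No peak of an HNRNPC list lay opposite any of them, and 3 regions had a peak of another list on the opposite strand. The plus strand held 3364 (52.3%), against 51.0% of all wild-type peaks. Between chromosomes, the share of wild-type peaks that were HNRNPC-only was highest on chromosome 19, at 14.3% (566 regions, interval 13.2 to 15.4), followed by chromosome 22 at 12.6% and chromosomes 16 and 20 at 11.9% each. It was lowest on chromosome 13, at 5.96% (56 regions, 4.62 to 7.66), and chromosome 18, at 6.5%. Shared peaks had the same lean on most of these chromosomes but not on all. They were 15.8% of all wild-type peaks. Their share was 17.8% on chromosome 19, 17.5% on chromosome 22 and 17.0% on chromosome 16. It was 12.9% on chromosome 13 and 10.7% on chromosome 18. Chromosome 20 went the other way, with 12.7%. The share of shared peaks was highest on chromosome X, where 10.1% of the wild-type peaks were HNRNPC-only. These chromosomes were picked as the extremes, and no test was made. Chromosomes 19 and 22 are known as gene-dense and rich in Alu elements, and chromosomes 13 and 18 as gene-poor. Whether the regions lay in such elements was not analysed here.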

How the data were processed

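Peak lists of 25 eCLIP libraries were analysed, and the 18 input samples entered only through the authors' normalisation. Per the submitters' processing notes, cutadapt, STAR, GATK, Picard and SAMtools were used with build hg19, and the caller of the peaks was not given in the sources used here. Each deposited list holds, for every peak, the authors' −log10 p and the authors' log2 fold of immunoprecipitation over input. These are the authors' values and serve only for description, ranking and filtering inside each list. Lists were made per library.

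Mitochondrial peaks were left out. Overlaps were counted on the same strand in Python 3.11.15 (pandas 2.3.3, numpy 2.4.6, scipy 1.17.1), with positions 1-based and code tested on simulated peaks. Where several isoform peaks met a region (103 regions in isoform 1 and 258 in isoform 2), the one of highest fold was used. The threshold (−log10 p of at least 3, log2 fold of at least 3) is usual for the assay and not taken from the labels. Shares carry 95% Wilson intervals. No replicates existed, read depth is unknown, and no test was made. The regions and measures were chosen with earlier results of these data known. Named were the 10 regions of highest lowest-of-3 fold, the 5 of highest wild-type fold and the 3 largest groups within 1000 nt; the stretches joined within 10000 nt were added after their values were seen. No genome or annotation of hg19 was used here, so uridine runs, introns and gene names were not analysed. Alternatives are given in the closing section.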

Additional observations from a re-analysis of the deposited data

How the results depend on the processing

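The 6430 regions became 4094 when isoform overlaps had to cover at least 50% of both peaks, 1893 when no peak of another list could lie within 1000 nt, and 15609 when only peaks past the threshold excluded. They became 10451 with only the other proteins' lists excluding, 9849 with isoform 1 alone required and 13076 with isoform 2 alone required. The count stayed within 1.5 times under the other 28 of 34 alternatives, among them leaving out each of the 22 lists in turn (6436 to 6783). With the −log10 p minimum raised to 5, the regions past the threshold fell to 66 in wild type, 31 in isoform 1, 84 in isoform 2 and 2 in all 3. At a log2 fold of at least 2 they numbered 255 in isoform 1, 564 in isoform 2 and 60 in all 3, and 312 in wild type. Taking the isoform peak of largest overlap left 12 regions past the threshold in all 3. The medians did not move under either alternative run. For the spacing ratios, 6 alternatives chosen after seeing the data gave 3.38 to 4.55 at 140 to 180 nt and 1.62 to 2.11 at 280 to 320 nt. With regions of log2 fold at least 1 in all 3 libraries, the second ratio was 1.62 with an interval of 0.82 to 3.18, which includes 1. The planned uridine-run and intron shares were not run. No paired analysis was possible because each state had 1 library and the results come from no test. Depth limits what a missing peak means: a position absent from a list may have had too few reads to be called there.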
